A study of Mus musculus with 28 samples.

Results

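The genes described here encode the subunits of the mitochondrial respiratory chain and of ATP synthase. They were taken from the deposited count table by name: complex I genes (Ndufa, Ndufb, Ndufc, Ndufs and Ndufv followed by a number), complex II genes (Sdha to Sdhd), complex III genes (Uqcr), complex IV genes (Cox4 to Cox8), ATP synthase genes (Atp5), and the protein-coding genes of the mitochondrial genome. Pseudogenes (names with -ps), assembly factors (Ndufaf) and Cox6a2 were left out, and a mean of at least 1 CPM (counts scaled to a library total of 1000000) over all libraries was asked for. Of 99 names that matched, 97 remained after these exclusions and 92 passed the CPM limit, out of 25900 gene identifiers in the table. All 92 also passed the count filter of the fit. The rule's edge fell between Cox6b2, at 0.999 CPM and left out, and Cox4i2, at 1.13 CPM and kept, and the other genes left out for a low level were Cox7a1 at 0.930, Cox7b2 at 0.257, Cox8b at 0.117 and Cox8c at 0 CPM.

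The tissue was frontal cortex of C57BL/6 mice at an age of 20 months, and its polyA RNA was sequenced in 28 libraries. Homozygous mice (HOM, 10 libraries) carried 2 knock-in alleles of Tardbp with the Q331K substitution, heterozygous mice (HET, 10 libraries) carried 1 such allele and a wild-type allele, and wild-type mice (WT, 8 libraries) carried 0. Tardbp encodes TDP-43, an RNA-binding protein, and Q331K is a substitution known from amyotrophic lateral sclerosis. The knock-in changes the endogenous gene, so the mutant protein is made wherever Tardbp is expressed and not only in one cell type. Sex, litter and batch are not in the labels, nor is it said whether different libraries are different animals. The p-values here therefore rest on library-to-library spread, part of which may be technical.

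In the respiratory chain, complex I (NADH dehydrogenase) and complex II (succinate dehydrogenase) pass electrons to coenzyme Q, complex III (the cytochrome bc1 complex) passes them to cytochrome c, and complex IV (cytochrome c oxidase) passes them to oxygen. Complexes I, III and IV pump protons, and ATP synthase (complex V) uses the proton gradient to make ATP, which neurons spend mostly on ion pumping and synaptic transmission. The core proteins of complexes I, III, IV and V are partly encoded in the mitochondrial genome, which is transcribed as long polycistronic RNAs, while all complex II subunits and most accessory subunits come from nuclear genes. The 92 genes comprised 35 nuclear genes of complex I, 4 of complex II, 8 of complex III, 14 of complex IV (with Ndufa4 and Ndufa4l2, which belong there despite their names), 15 of ATP synthase and 13 mitochondrially encoded genes. The name rule also took in 3 genes that encode no subunit: Cox4nb, which lies next to Cox4i1 and encodes a protein of the endoplasmic reticulum membrane complex (Emc8 in GENCODE), and Atp5s and Atp5sl, named for their likeness to ATP synthase factors.

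Part of the mitochondrial genome has a nuclear copy, which may bear on the counts of the genes inside it, so its sequence is shown first. The stretch of the mitochondrial genome from the end of mt-Co1 to the first part of mt-Nd4 has a copy on the minus strand of chromosome 1, where GENCODE vM21 (GRCm38) annotates 7 pseudogenes between 24611535 and 24616197. The first 120 bases of mt-Co2 (MT:7013-7132, plus strand, coding exon), which encodes a core subunit of complex IV, and the matching bases of the pseudogene Gm28661 (chr1:24615446-24615565, minus strand) held 0 mismatches. In a 120-base window at the copied end of mt-Co1 (MT:6390-6509, plus strand, coding exon), which encodes the catalytic core subunit of complex IV, and its copy Gm29216 (chr1:24616069-24616188, minus strand) there was 1 substitution, A4T, with positions counted from the 5′ end of the window and the differing base in capitals.
mt-Co2: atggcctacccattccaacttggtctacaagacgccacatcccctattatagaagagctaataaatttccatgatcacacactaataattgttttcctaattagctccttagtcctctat
Gm28661: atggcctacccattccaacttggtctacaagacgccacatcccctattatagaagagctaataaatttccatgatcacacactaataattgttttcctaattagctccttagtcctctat
mt-Co1: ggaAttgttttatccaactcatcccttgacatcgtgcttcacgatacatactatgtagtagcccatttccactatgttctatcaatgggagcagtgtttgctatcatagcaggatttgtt
Gm29216: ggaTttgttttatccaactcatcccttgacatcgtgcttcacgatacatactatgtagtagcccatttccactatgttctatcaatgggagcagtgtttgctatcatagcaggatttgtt

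Over whole genes, the copy covered 681 of 684 bases of mt-Co2 (Gm28661), 678 of 681 of mt-Atp6 (Gm10925), 783 of 784 of mt-Co3 (Gm28437) and 294 of 297 of mt-Nd4l (Gm10222), each with 0 mismatches. Of the 348 bases of mt-Nd3, 345 were covered by Gm28438 with 1 mismatch. The copy held the last 483 of the 1545 bases of mt-Co1 with 1 mismatch, and 876 of the 1378 bases of mt-Nd4 with 0 mismatches (Gm28439), so 1062 bases of mt-Co1 and 502 bases of mt-Nd4 lay outside it. Within annotated copies mt-Atp8 matched over 43 bases, in Gm10925. The stretch on chromosome 1 holds no annotated copy of mt-Nd1, mt-Nd2, mt-Nd5, mt-Nd6 or mt-Cytb.

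The deposited levels differed widely among the 13 genes. On the scale of CPM per kb of transcript, mt-Co1 stood at 17360, mt-Cytb (complex III) at 9754, mt-Nd1 at 8188, mt-Nd2 at 5446, mt-Nd5 at 3448 and mt-Nd4 at 3086, as means over 28 libraries, and these 6 genes held 99.7% of the counts of the 13. The 6 genes inside the copied stretch stood at 91.3 (mt-Nd3), 68.6 (mt-Atp8), 48.8 (mt-Co3), 40.6 (mt-Co2), 31.3 (mt-Atp6) and 18.7 (mt-Nd4l) CPM per kb, so the least abundant of the first 6 was 33.8-fold above the most abundant of the second 6. The remaining gene, mt-Nd6, is encoded on the other strand and overlaps mt-Nd5. It has no annotated copy in that stretch and stood at 149.8 CPM per kb, below the 6 abundant genes. Of those, mt-Co1 and mt-Nd4 lie partly inside the copy. Of the 7 pseudogenes only Gm10222 has a row in the table, at 1.97 CPM. Among the nuclear genes, 6 (Atp5g2, Atp5h, Atp5l, Atp5o, Ndufs3 and Uqcrb) have annotated copies of at least 97% identity over at least 50% of the transcript, and 24 of the 92 genes share exon bases with a protein-coding gene on the other strand, so their counts are uncertain in the same way where the counting ignored strand. How reads that fit more than 1 place were counted is not given in the sources used here, and its part in these levels was not tested, so the levels and differences of the 6 genes in the copied stretch are uncertain.

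**Figure D1:**
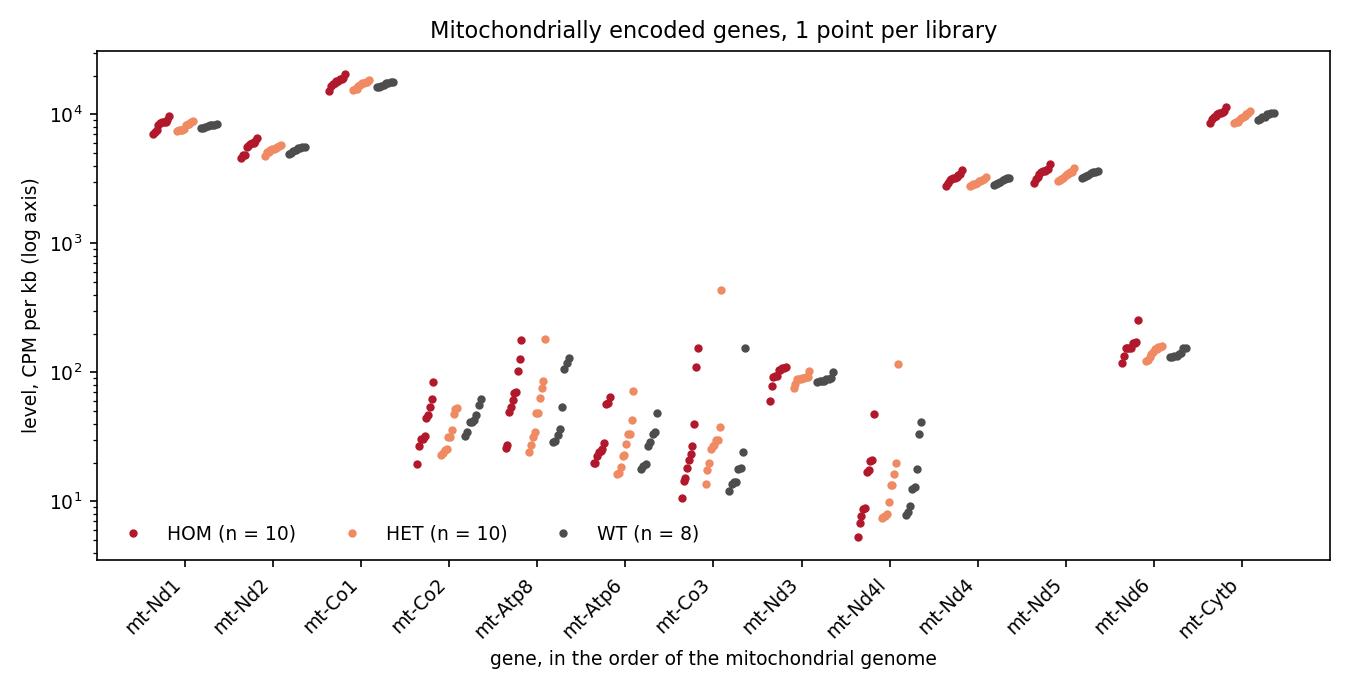
Level of each mitochondrially encoded gene in CPM per kb (log axis), 1 point per library, HOM, HET and WT from left to right within a gene and points sorted by value, genes in the order of the mitochondrial genome. Averaged over libraries, the 6 genes from mt-Co2 to mt-Nd4l lie between 18.7 and 91.3 CPM per kb, and the 6 abundant genes between 3086 and 17360.

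Total counts ran from 30.5 M to 62.6 M in HOM, from 45.05 M to 74.9 M in HET and from 46.5 M to 64.1 M in WT (M, 1000000 reads counted), with a biological coefficient of variation of 8.46% in the fit. No library was a repeat of another: over 15910 genes, chi-square divided by its degrees of freedom was at least 6.12 in each of 378 pairs. The shallowest libraries, HOM 2 (30.5 M) and HOM 1 (32.8 M), also stood apart in the genes described here. HOM 2 was the highest of 28 libraries for 47 of the 79 nuclear genes and the lowest for 1, while HOM 1 was the highest for 21 and the lowest for 20. A deeper library, WT 5 (62.8 M), was the lowest for 25 and the highest for 0, and had the lowest nuclear share (0.918%). The 79 nuclear genes took 1.11% of the counts of HOM 2, against 0.938% to 0.990% in the other 9 HOM libraries, 0.949% to 1.01% in HET and 0.918% to 1.01% in WT. Without both libraries, 22 of 30 named nuclear genes had a log2 fold change (HOM over WT) that moved by over 1.5 times or changed sign, by at most 0.078 on the log2 scale (Ndufa3). The values without them are given for the calls, the medians by complex and the genes described below whose values moved most.

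**Figure D2:**
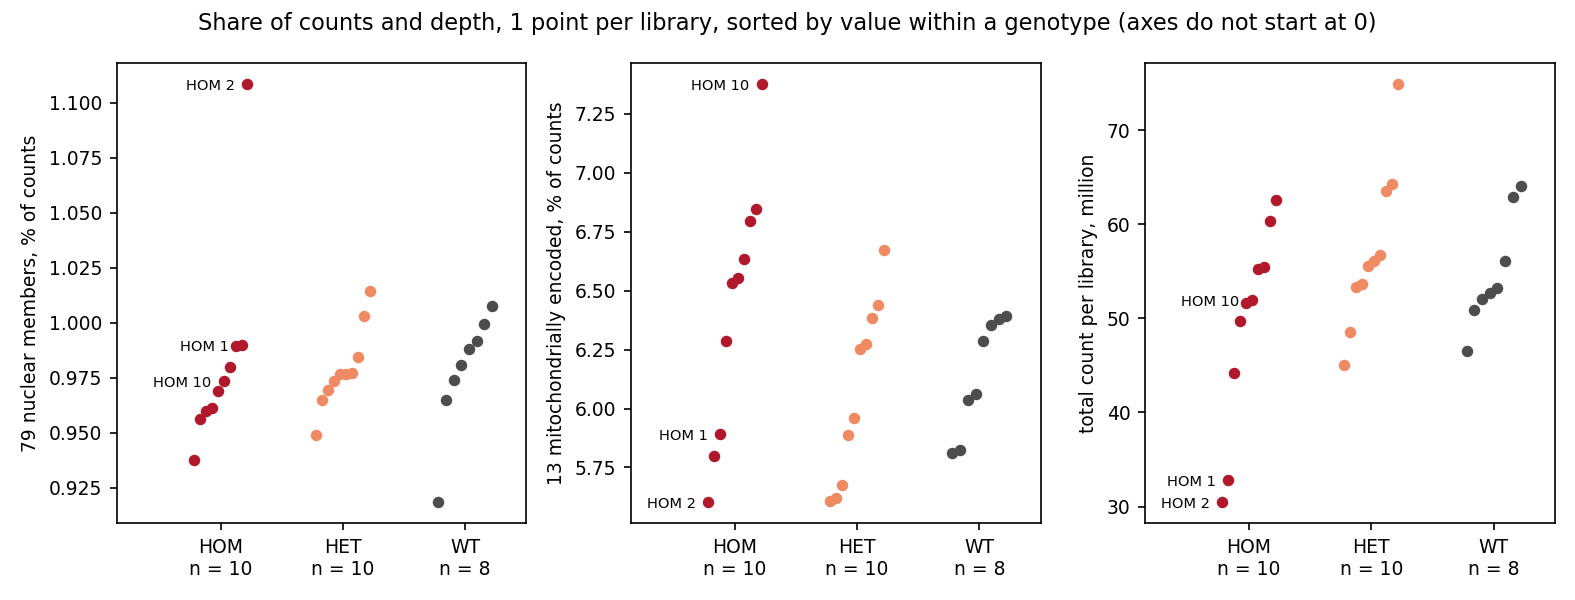
Share of each library's counts taken by the 79 nuclear genes (left) and by the 13 mitochondrially encoded genes (middle), in percent, and total count in M (right), 1 point per library for HOM, HET and WT, sorted by value. HOM 2 has the highest nuclear share (1.11%), the lowest mitochondrially encoded share (5.60%) and the lowest total (30.5 M).

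Tardbp (ENSMUSG00000041459, chromosome 4, minus strand, 148612382 to 148627019, GRCm38) was counted at 349.7 ± 18.4 CPM in HOM (SD, n = 10), 328 ± 13.6 CPM in HET (n = 10) and 320.4 ± 13.1 CPM in WT (n = 8). HOM exceeded WT by 0.12 on the log2 scale (SE 0.032; edgeR quasi-likelihood test, adjusted p = 0.0185, Benjamini-Hochberg over 16110 genes). A count per gene does not separate the mutant from the wild-type allele, and the genotype labels were not checked by it.

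The first question is whether cortex with 2 mutant alleles differed from WT cortex in these genes. With edgeR, 2 of the 92 genes were called at an adjusted p under 0.05, both lower in HOM: Uqcrc2 of complex III and Atp5l of ATP synthase. That is 2.17% of the 92, while 7.61% of the 16110 genes tested were called (3.9% higher and 3.71% lower). Most complexes hold few genes, so their own counts of calls, given below, say little beside that share. The count over all genes was 595 without WT 6 and 725 without WT 2, against 1226 with all libraries. At an unadjusted p under 0.05 there were 13 of 92, against 24.6% of all genes tested. The median log2 fold change of the 92 was 0.014, against 0.0050 over all genes tested, with 56 above 0 and 36 below. By complex the medians were 0.0078 for complex I, -0.028 for complex II, 0.0081 for complex III, 0.027 for complex IV, 0.0032 for ATP synthase and 0.079 for the mitochondrially encoded genes. Without HOM 2 they were -0.0047 for complex I, -0.048 for complex II, -0.016 for complex III, 0.015 for complex IV, -0.0091 for ATP synthase and 0.10 for the mitochondrially encoded genes, so those of complex I, complex III and ATP synthase changed sign. HOM 2 stood out for its high nuclear values, so lower nuclear medians without it follow in part from that choice. In bulk tissue, fewer cells of a type and less RNA per cell cannot be told apart.

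Most of the nuclear genes were measured precisely. For 77 of 79 nuclear genes the 95% interval of the difference between HOM and WT lay within 1.2-fold in either direction, and for 54 it lay within 1.1-fold. Over all genes tested, not matched by level, 11001 of 16110 had an interval within 1.2-fold and 5814 within 1.1-fold. Among 9213 other genes at 13.6 CPM or more, the median SD of log2 CPM within a genotype was that of the nuclear genes, 0.0784. The 2 nuclear exceptions were Ndufa3 and the low isoform Cox4i2, whose intervals reached beyond 1.2-fold on the side higher in HOM. Of the 13 mitochondrially encoded genes, 6 had an interval within 1.2-fold.

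**Figure D3:**
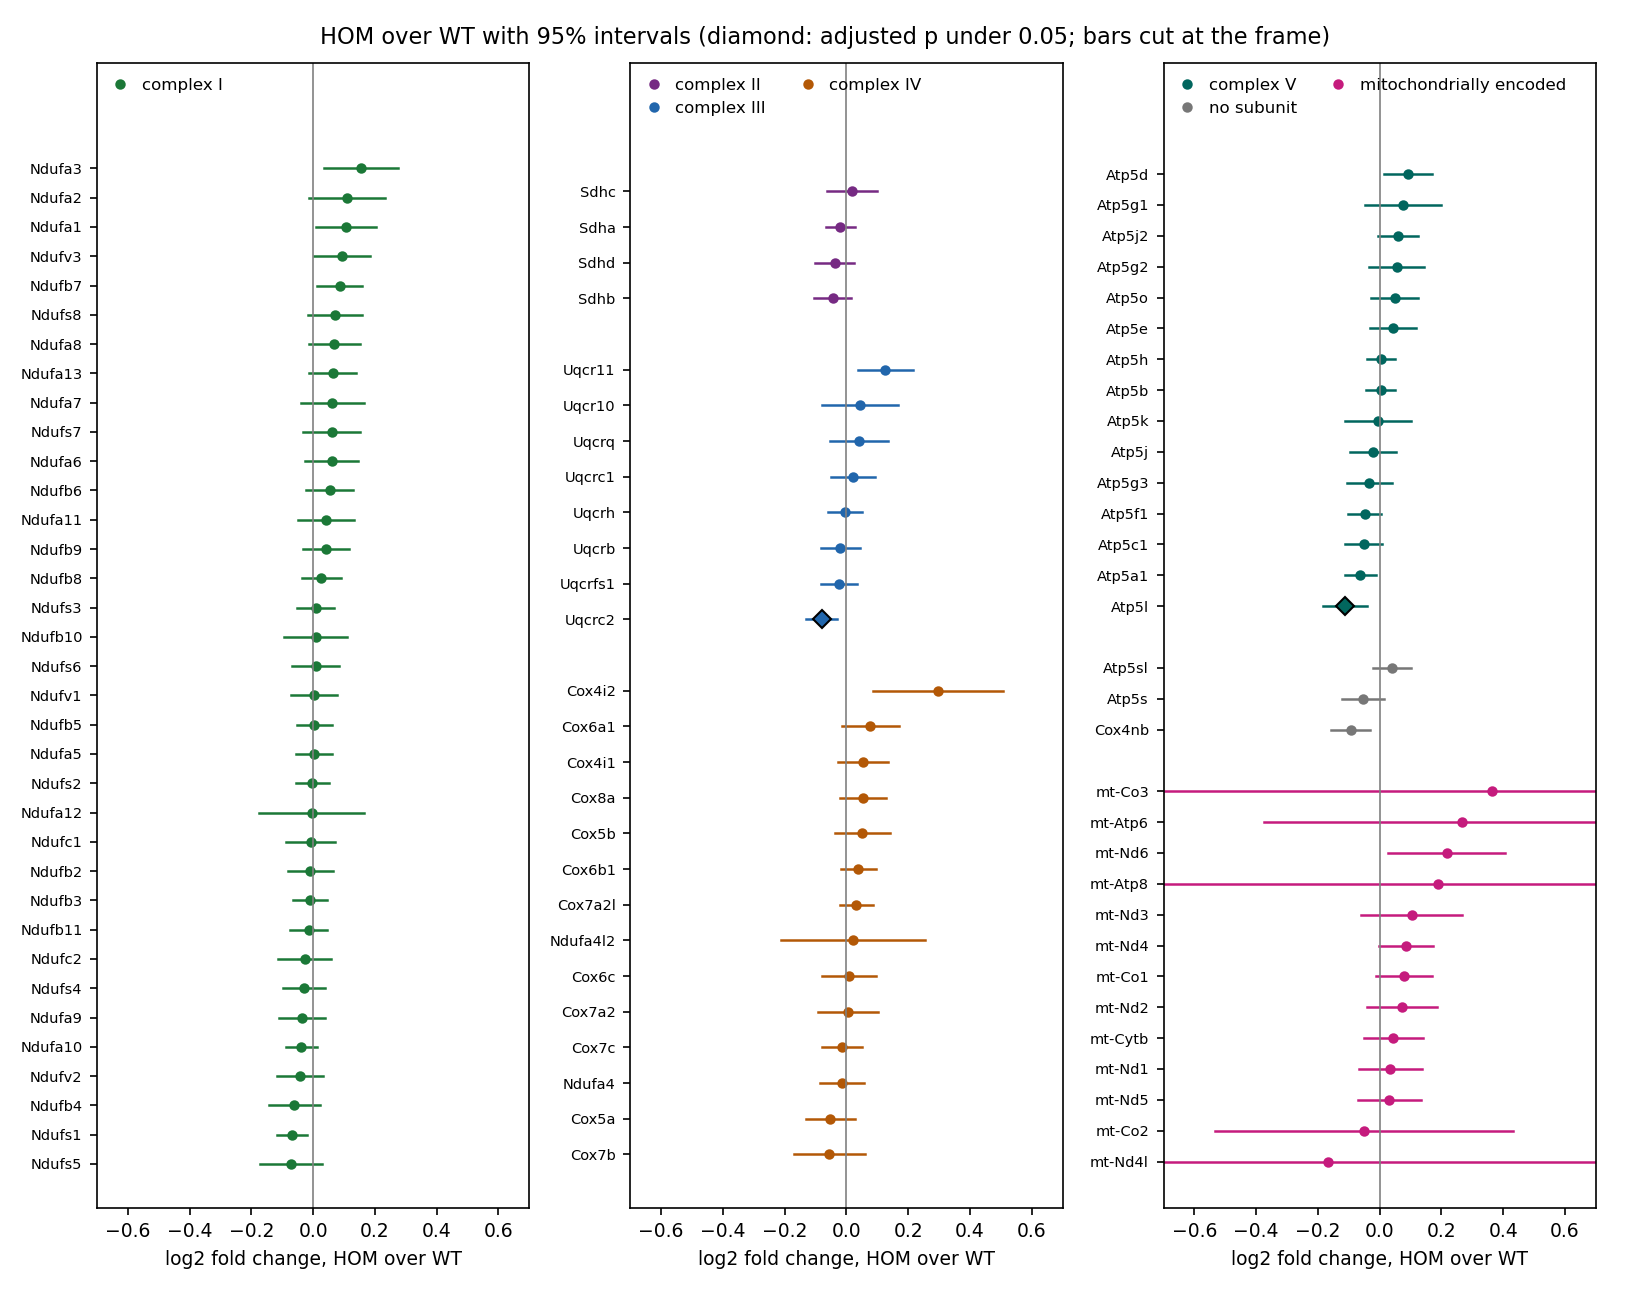
Log2 fold change of HOM over WT for the 92 genes with 95% intervals, grouped by complex and sorted within a complex. Diamonds mark the genes called by edgeR, Uqcrc2 (-0.080) and Atp5l (-0.11), and intervals wider than the frame, those of mt-Co3, mt-Atp6, mt-Atp8 and mt-Nd4l, are cut at it.

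Uqcrc2 (ENSMUSG00000030884, chromosome 7) encodes core protein 2 of complex III. It was counted at 166, 179 and 189 CPM in HOM (lowest, median and highest of 10 libraries), at 175, 184 and 192 CPM in HET, and at 175, 189.5 and 197 CPM in WT. The groups overlapped: HOM 10, HOM 7 and HOM 1 had less than WT 5, the lowest of WT, and 0 HOM libraries exceeded the highest of WT, while 9 of 10 HOM libraries lay below the WT mean. On the log2 scale the fold change was -0.080 (SE 0.025, adjusted p = 0.0452, edgeR), with a 95% interval of -0.13 to -0.030, and the slope per mutant allele was -0.040 (SE 0.012, adjusted p = 0.0409). Exons of Uqcrc2 overlap those of Pdzd9 on the other strand.

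The call on Uqcrc2 stood close to the threshold. Leaving out any 1 of 13 libraries ended it (HOM 1, 5, 6, 7, 9 and 10, HET 8, and WT 1, 2, 3, 6, 7 and 8), with log2 fold changes of -0.086 to -0.070 and adjusted p of 0.0507 to 0.0898. With marker levels of vascular and meningeal cells as covariates the log2 fold change was -0.035 (adjusted p = 0.627, edgeR). These markers differ with genotype themselves: 3 of 5 endothelial, 4 of 10 mural and 2 of 6 meningeal markers were called higher in HOM and 0 lower. For any gene, that fit therefore cannot separate genotype from marker level.

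Atp5l (ENSMUSG00000038717, chromosome 9) encodes subunit g of ATP synthase, a small membrane subunit known for its part in joining the enzyme into dimers. It was counted at 71.5, 75.7 and 88.8 CPM in HOM, at 75.8, 81.2 and 86.5 CPM in HET, and at 78.7, 84.2 and 87.3 CPM in WT. Below the lowest WT library lay 7 of the 10 HOM libraries, and the other 3 were HOM 9 (80.2 CPM), HOM 2 (85.2 CPM) and HOM 1 (88.8 CPM), of which HOM 1 exceeded every WT library. HOM against WT gave a log2 fold change of -0.11 (SE 0.035, adjusted p = 0.0462, edgeR), with a 95% interval of -0.19 to -0.041, and the slope per allele was -0.057 (SE 0.017, adjusted p = 0.0412). Leaving out any 1 of 13 libraries ended the call (HOM 3, 4, 6, 8 and 10, HET 5 and 8, and WT 2, 3, 4, 6, 7 and 8), with log2 fold changes of -0.12 to -0.11 and adjusted p of 0.0501 to 0.0724, and with the marker covariates the log2 fold change was -0.096 and the adjusted p was 0.343. Of the 4 annotated copies of Atp5l, 2 have a row of their own in the table, so its reads may be split among them.

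**Figure D4:**
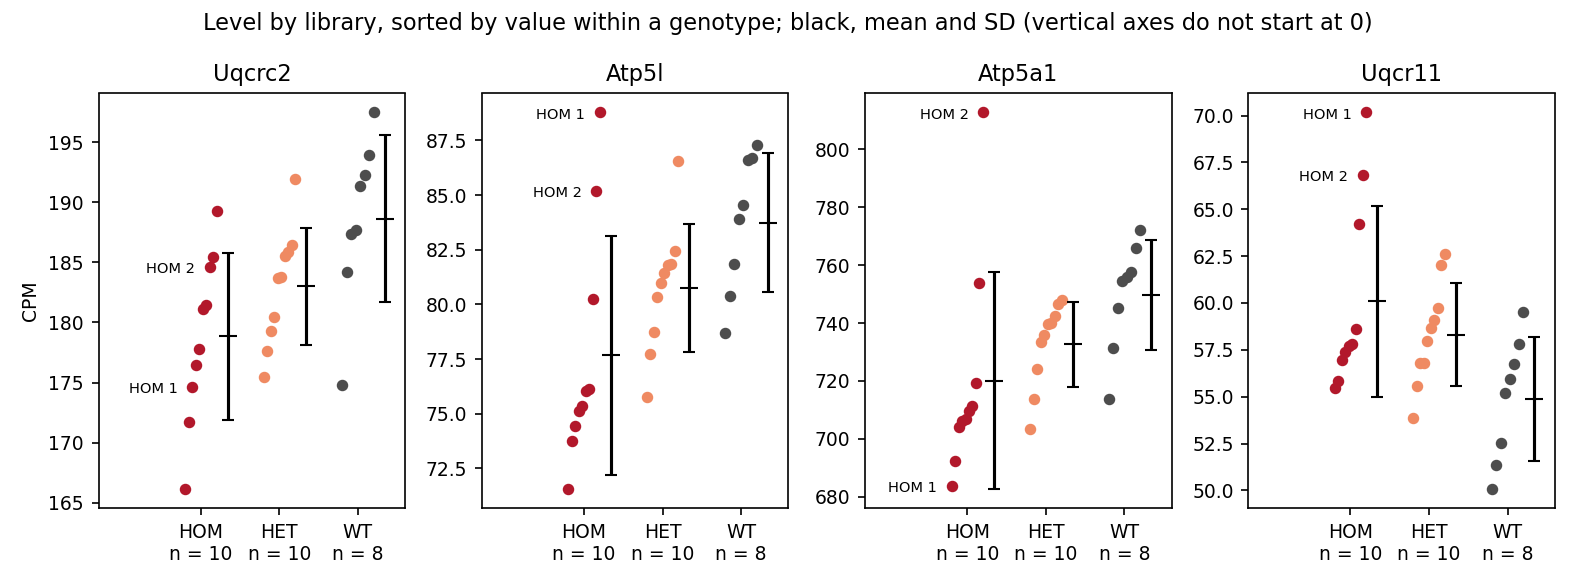
Level in CPM of Uqcrc2, Atp5l, Atp5a1 and Uqcr11 in each library, sorted by value within HOM, HET and WT, with the mean and SD in black. In Atp5l and Atp5a1, 7 HOM libraries lie below the lowest WT library, while HOM 1 (Atp5l) or HOM 2 (Atp5a1) lies above the highest.

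The number of genes called moved with HOM 2 and HOM 1. HOM 2 was the highest library for 47 of the 79 nuclear genes, so leaving it out lowers their HOM values by construction. The lower nuclear median and the added lower calls without it follow in part from that choice. Medians without WT 5, the lowest library for 25 of the genes, are not given. Without HOM 2, edgeR called 5 of the 92 genes, all lower in HOM: Atp5a1, Atp5l, Cox4nb, Ndufs1 and Uqcrc2. Of all 16105 genes tested without HOM 2, 473 were called higher and 457 lower. Without HOM 2 the median log2 fold change of the 79 nuclear genes was -0.011, with 32 above 0, against 0.0049 with 45 above 0 in all libraries. Without HOM 2 and HOM 1 edgeR called Atp5a1, Atp5l and Ndufa10, all lower in HOM, and 428 genes higher and 448 lower of 16100 tested. Without HOM 1 it called only Atp5l among the 92, and 505 genes higher and 551 lower of 16108 tested. Ndufa10 encodes an accessory subunit of complex I and was counted at 116 ± 4.91 CPM in HOM, 118 ± 2.35 CPM in HET and 119.3 ± 3.27 CPM in WT.

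Complex I, the largest of the complexes, held no gene that edgeR called in all libraries (0 of 35, against 7.61% of all genes tested). DESeq2 called Ndufs1. Ndufs1, the largest subunit of complex I and a carrier of iron-sulfur clusters, had the smallest p. It was counted at 129.99, 139.7 and 149 CPM in HOM, at 137, 142 and 150 CPM in HET and at 137, 147 and 154 CPM in WT. The groups overlapped, with 8 of 10 HOM libraries below the WT mean, 1 of them (HOM 1) below the lowest WT library, and the log2 fold change was -0.068 (SE 0.024, adjusted p = 0.0750, edgeR). Without HOM 2 the edgeR value was -0.077 (adjusted p = 0.0444) and without WT 5 it was -0.083 (adjusted p = 0.0376, edgeR). With DESeq2 and all libraries it was -0.069 (adjusted p = 0.0347), and with limma voom -0.064 (adjusted p = 0.0627). Exons of Ndufs1 overlap those of Eef1b2 on the other strand.

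The next smallest p values in complex I belonged to small accessory subunits with positive differences that did not pass the test. Ndufa3, a membrane-arm subunit, was counted at 54.4, 59.9 and 85.6 CPM in HOM, at 54.7, 59.0 and 64.4 CPM in HET and at 52.3, 55.7 and 61.3 CPM in WT, and its highest library was HOM 1. Its log2 fold change was 0.16 (SE 0.059, adjusted p = 0.0993, edgeR), or 0.091 without HOM 1 (adjusted p = 0.122), and its exons overlap those of Tfpt on the other strand. Ndufb7 had a log2 fold change of 0.086 (SE 0.036, adjusted p = 0.135), with 51.4 ± 3.63 CPM in HOM, 50.4 ± 2.23 CPM in HET and 48.3 ± 2.10 CPM in WT. Ndufb9 and Ndufb8 had the highest levels per length in complex I, 194 and 154 CPM per kb, with log2 fold changes of 0.041 (SE 0.036) for Ndufb9 and 0.026 (SE 0.031) for Ndufb8. Without HOM 2 these were 0.011 for Ndufb9 and -0.0047 for Ndufb8.

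Complex II, which also works in the citric acid cycle, was measured with 4 of 4 subunits. Of these 0 were called, against 7.61% of all genes tested. Sdha, the flavoprotein that oxidises succinate, was counted at 402, 413 and 464 CPM in HOM, at 399, 413 and 423 CPM in HET and at 405, 425 and 429 CPM in WT. Its highest value was that of HOM 2, and 8 of 10 HOM libraries lay below the WT mean. Log2 fold changes of HOM over WT were -0.019 (SE 0.022) for Sdha, -0.045 (SE 0.029) for the iron-sulfur subunit Sdhb, 0.019 (SE 0.040) for the membrane anchor Sdhc and -0.037 (SE 0.031) for the membrane anchor Sdhd, with adjusted p of 0.362 to 0.813. All 4 intervals lay within 1.1-fold. Without HOM 2 the values of all 4 genes were below 0, with a median of -0.048 and 0 calls.

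In complex III, Uqcrc2 was the single gene that edgeR called (1 of 8, against 7.61% of all genes tested). Uqcr11, a small subunit of the complex, differed in the other direction without passing the test. It was counted at 55.5, 57.8 and 70.2 CPM in HOM, at 53.8, 58.3 and 62.6 CPM in HET and at 50.1, 55.6 and 59.5 CPM in WT. Each of the 10 HOM libraries exceeded the WT mean, and HOM 1, HOM 2 and HOM 10 exceeded every WT library. The log2 fold change was 0.13 (SE 0.044, adjusted p = 0.0717, edgeR), and 0.074 without HOM 2 and HOM 1. Uqcrh, the hinge protein, had the highest level per length of the complex, 337 CPM per kb, and a log2 fold change of -0.0045 (SE 0.026). Uqcrq, next at 183 CPM per kb, had one of 0.041 (SE 0.047), or 0.0028 without HOM 2.

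In complex IV edgeR called 0 of 14 genes, against 7.61% of all genes tested. The gene with the smallest p was Cox4i2, the isoform of subunit 4 known from lung and from hypoxia. It was counted at 0.977, 1.18 and 1.56 CPM in HOM, at 0.928, 1.145 and 1.32 CPM in HET and at 0.816, 0.981 and 1.22 CPM in WT. The groups overlapped, with 9 of 10 HOM libraries above the WT mean and 4 beyond the WT range. Its log2 fold change was 0.30 (SE 0.10, adjusted p = 0.0733, edgeR), and without WT 8 it was 0.34 (adjusted p = 0.0498). Vascular markers moved beside it: of 10 mural cell markers 4 were called higher and 0 lower, with summed levels of 234 to 293 CPM in HOM, 233 to 300 CPM in HET and 222 to 256 CPM in WT, and of 5 endothelial markers 3 were called higher, with 174 to 215 CPM in HOM, 160 to 205 CPM in HET and 162 to 179 CPM in WT. None of these markers had a median of 0, and their part in the level of Cox4i2 was not tested.

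Of the abundant subunits of complex IV, Cox8a and Cox4i1 had the highest levels per length, 647 and 516 CPM per kb, and Cox6a1 stood at 387 CPM per kb. Their log2 fold changes of HOM over WT were 0.054 (SE 0.036) for Cox8a, 0.055 (SE 0.039) for Cox4i1 and 0.078 (SE 0.045) for Cox6a1, with adjusted p of 0.288 to 0.409 (edgeR). Without HOM 2 and HOM 1 they were 0.023 for Cox8a, 0.018 for Cox4i1 and 0.023 for Cox6a1. Exons of Cox4i1 overlap those of its neighbour Cox4nb on the other strand. Cox4nb was counted at 55.3, 60.4 and 62.9 CPM in HOM, at 59.0, 60.8 and 66.3 CPM in HET and at 60.3, 62.5 and 69.1 CPM in WT, with 5 HOM libraries under the WT range and 0 above the WT mean. Its log2 fold change was -0.093 (SE 0.031, adjusted p = 0.0579, edgeR), and limma voom and DESeq2 called it, also lower in HOM.

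In ATP synthase, Atp5l was the single gene that edgeR called in all libraries (1 of 15, against 7.61% of all genes tested). limma voom called Atp5a1 too. Atp5a1, the alpha subunit of the catalytic head, was counted at 684, 708 and 813 CPM in HOM, at 703, 738 and 748 CPM in HET and at 714, 755 and 772 CPM in WT. Below the lowest WT library lay 7 of 10 HOM libraries, while HOM 2 held the highest value of all 28. For Atp5a1 the log2 fold change was -0.062 (SE 0.025, adjusted p = 0.114, edgeR), and without HOM 2 it was -0.082 (adjusted p = 0.0109, edgeR), or -0.078 without HOM 2 and HOM 1 (adjusted p = 0.0143). With limma voom and all libraries it was -0.068 (adjusted p = 0.0335). The exons of Atp5a1 overlap those of Haus1 on the other strand.

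Atp5b, the catalytic beta subunit that pairs with alpha in the head, had the highest nuclear level, 1043 CPM or 544 CPM per kb. It was counted at 1003, 1036 and 1126 CPM in HOM, at 1012, 1043 and 1102 CPM in HET and at 964, 1048 and 1066 CPM in WT, and 2 HOM libraries exceeded every WT library. HOM and WT differed by a log2 fold change of 0.0032 (SE 0.024), with a 95% interval of -0.045 to 0.051. Atp5d, the delta subunit of the central stalk, lay higher in HOM without passing the test, at 144 ± 11.2 CPM in HOM, 142 ± 5.82 CPM in HET and 135 ± 5.19 CPM in WT. Its log2 fold change was 0.093 (SE 0.038, adjusted p = 0.126, edgeR), or 0.039 without HOM 2 and HOM 1, and 5 HOM libraries lay above the highest WT library.

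The 13 mitochondrially encoded genes took 5.60%, 6.54% and 7.38% of counts in HOM (lowest, median and highest library), 5.61%, 6.10% and 6.67% in HET and 5.81%, 6.17% and 6.39% in WT. Means were 6.43 ± 0.544% in HOM, 6.08 ± 0.378% in HET and 6.14 ± 0.243% in WT (SD). HOM spanned the whole range of the study, with HOM 2 lowest and HOM 10 highest, and the HOM mean lay 0.289 percentage points above the WT mean. Without HOM 10 that difference was 0.184 points.

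With edgeR 0 of the 13 were called, against 7.61% of all genes tested. limma voom called mt-Nd6 and DESeq2 called mt-Co3, both higher in HOM. With edgeR 11 of 13 had a positive log2 fold change of HOM over WT. For the 6 abundant genes it was 0.084 (SE 0.043) for mt-Nd4, 0.079 (SE 0.044) for mt-Co1, 0.072 (SE 0.056) for mt-Nd2, 0.044 (SE 0.046) for mt-Cytb, 0.035 (SE 0.049) for mt-Nd1 and 0.032 (SE 0.049) for mt-Nd5, with adjusted p of 0.223 to 0.734 (edgeR). These genes are cut from shared precursor RNAs, so they are not independent of each other. The highest library was HOM 10 for 5 of them and HOM 9 for mt-Nd2, and the lowest was HOM 2, HOM 1 or HOM 3. The ratio of highest to lowest library was between 1.34 and 1.45.

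mt-Co1 was counted at 23617, 28073 and 31821 CPM in HOM, at 23760, 26446 and 28348 CPM in HET and at 25023, 26461 and 27495 CPM in WT. Above the highest WT library lay 6 HOM libraries, and 1 lay below the lowest. mt-Nd6, the complex I subunit read from the other strand, was counted at 61.4, 80.5 and 132.5 CPM in HOM, at 63.3, 76.3 and 83.3 CPM in HET and at 68.0, 71.0 and 80.5 CPM in WT. HOM 5 held the value of 132.5 CPM, and the next HOM library had 89.1. The log2 fold change of mt-Nd6 was 0.22 (SE 0.093, adjusted p = 0.147, edgeR), and 0.12 without HOM 5 (adjusted p = 0.265). With limma voom it was 0.28 (adjusted p = 0.0462), and with DESeq2 0.21 (adjusted p = 0.104).

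Of the 6 genes of the copied stretch, mt-Co3 had the widest range. mt-Co3 was counted at 8.36, 17.3 and 122 CPM in HOM, at 10.6, 21.4 and 342 CPM in HET and at 9.41, 12.5 and 120.3 CPM in WT. The high values came from 4 libraries, HET 2, HOM 1, WT 8 and HOM 10 (86.4 CPM), and the other 24 lay at 31.3 CPM or below. mt-Atp6 had its highest values in HET 8 (48.8 CPM), HOM 5 (44.2 CPM), HOM 10 (39.6 CPM) and HOM 1 (38.6 CPM), and mt-Nd4l in HET 9 (34.5 CPM) and HOM 10 (14.1 CPM). The highest values of mt-Co2 (57.4 CPM) and mt-Nd3 (38.5 CPM) were also those of HOM 10. mt-Nd3 had the narrowest range of the 6, 20.8 to 38.5 CPM in HOM, 26.5 to 35.5 CPM in HET and 29.4 to 34.8 CPM in WT. Log2 fold changes of HOM over WT ran from -0.17 (mt-Nd4l, SE 0.56) to 0.36 (mt-Co3, SE 0.76), and mt-Co2 had one of -0.050 (SE 0.23), mt-Atp8 0.19 (SE 0.43), mt-Atp6 0.27 (SE 0.31) and mt-Nd3 0.10 (SE 0.080). Without HOM 1 the value of mt-Co3 was -0.11. With DESeq2 the log2 fold change of mt-Co3 was 1.35 (adjusted p = 0.0182), and with limma voom 0.14 (adjusted p = 0.888). Its mean levels were 34.1 ± 38.4 CPM in HOM and 26.2 ± 38.1 CPM in WT (SD). The DESeq2 value is far larger than the difference between these means, and the reason was not tested.

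The second question is whether cortex with 1 mutant allele differed from WT cortex. In HET against WT edgeR called 0 of the 92 genes, against 0% of all genes tested, and at an unadjusted p under 0.05 there were 0 of 92, against 9.6% of all genes tested. limma voom called 14 and DESeq2 12 of all genes, and 0 of the 92. The median log2 fold change of the 92 was 0.0052, and for 77 of 79 nuclear genes the 95% interval lay within 1.2-fold. Uqcrc2 had a log2 fold change of -0.045 (SE 0.025, adjusted p = 0.556) and Atp5l one of -0.053 (SE 0.035, adjusted p = 0.619). Ndufa12, an accessory subunit of complex I, had the lowest nuclear value, -0.15 (SE 0.083, adjusted p = 0.556).

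In HOM against HET edgeR called 0 of the 92 genes, against 0.0372% of all genes tested (6 genes), and 3 of the 92 had an unadjusted p under 0.05, against 8.54% of all genes tested: mt-Nd4 (0.097, SE 0.040), mt-Co1 (0.091, SE 0.042) and mt-Nd6 (0.19, SE 0.087). Along the number of mutant alleles (0, 1 or 2), 2 of the 92 were called, again Uqcrc2 and Atp5l and both falling, against 7.78% of all genes tested (3.99% rising and 3.79% falling). At an unadjusted p under 0.05 there were 14 of 92, against 24.7% of all genes tested. These comparisons share libraries, so their values are not independent.

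Across complexes the nuclear genes summed to 9799.8 CPM, of which ATP synthase had 3331, complex I 2487, complex IV 2283, complex III 919.7 and complex II 671 CPM. Per length, the median was 191 CPM per kb for complex IV, 158 for ATP synthase, 134 for complex III, 76.5 for complex II and 75.2 for complex I. Levels within a complex were unequal: from 26.5 (Ndufv3) to 194 CPM per kb (Ndufb9) in complex I and from 82.6 (Atp5g2) to 544 (Atp5b) in ATP synthase.

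In the pairs of paralogous complex IV genes compared here, 1 gene held nearly all counts of its pair. Cox8a was 1997-fold above Cox8b on the scale of CPM per kb, Cox4i1 331.05-fold above Cox4i2, Ndufa4 299-fold above Ndufa4l2, Cox6b1 130.3-fold above Cox6b2 (known from testis), Cox7a2 80.2-fold above Cox7a1 (known from heart and muscle) and Cox6a1 45.8-fold above Cox6a2 (likewise). Subunit c of ATP synthase, which forms the rotor ring, is encoded by several genes for the same mature protein. All of them were expressed, with Atp5g3 at 247, Atp5g1 at 135 and Atp5g2 at 82.6 CPM per kb. Cox7a2l, a relative of Cox7a2 that takes part in respiratory supercomplexes, stood at 98.6 CPM per kb, with a log2 fold change of HOM over WT of 0.032 (SE 0.027). Cox6a2, outside the 92, was at 5.09 ± 0.927 CPM in HOM, 6.03 ± 0.778 CPM in HET and 6.20 ± 0.724 CPM in WT, with a log2 fold change of -0.30 (SE 0.097, adjusted p = 0.0538, edgeR). Beside it, 3 of 6 markers of parvalbumin interneurons were called lower and 0 higher, with summed levels of 454 to 553 CPM in HOM, 508 to 592 CPM in HET and 516 to 621 CPM in WT, and their part in the level of Cox6a2 was not tested.

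**Figure D5:**
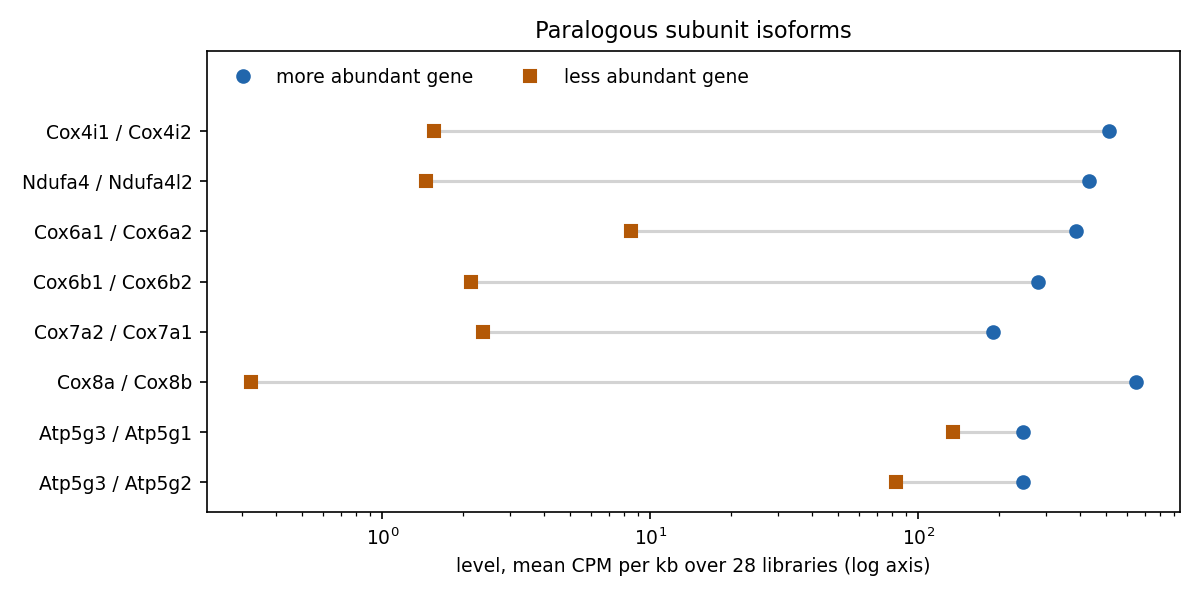
Mean level over 28 libraries of paired paralogous genes in CPM per kb (log axis), circles for the more abundant and squares for the less abundant gene of a pair. In complex IV the pairs lie 45.8-fold (Cox6a1 and Cox6a2) to 1997-fold (Cox8a and Cox8b) apart, and the genes of ATP synthase subunit c 1.82-fold and 2.99-fold.

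The spread between libraries of a genotype was set beside that of other genes above a lower limit of level, without matching the level. The median SD of log2 CPM within a genotype was 0.0784 for the 79 nuclear genes and 0.0784 for 9213 other genes tested at 13.6 CPM or more (median level 48.9 CPM, against 80.5 CPM for the nuclear genes), and it was 0.187 for the mitochondrially encoded genes. The tightest genes were Atp5h (0.041), Sdha (0.042), Atp5b (0.045) and Ndufs1 (0.045), and the widest were mt-Co3 (1.29), mt-Nd4l (1.03), mt-Atp8 (0.90), mt-Atp6 (0.63), mt-Co2 (0.50) and Ndufa4l2 (0.23). Ndufa4l2 was counted at 1.37 ± 0.342 CPM in HOM, 1.35 ± 0.175 CPM in HET and 1.34 ± 0.107 CPM in WT. Ndufa12, singled out after its values were seen, had an SD of 0.18, with HOM 9 (63.1 CPM), WT 6 (62.7 CPM) and WT 7 (61.0 CPM) above all others, of which the next was HOM 3 at 54.1 CPM and the lowest WT 1 at 39.4 CPM.

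Among the nuclear genes the sign of the difference went with transcript length. Of the 40 genes with a transcript of at most 758 bases 27 (67.5%) had a positive log2 fold change of HOM over WT, with a median of 0.040, while of the 39 longer ones 18 (46.2%) had, with a median of -0.0049. Without HOM 2 the share was 50% of the short genes (median -0.00093) and 30.8% of the longer ones (median -0.018). Other protein-coding genes gave 62.8% positive (median 0.028, 487 genes) and 52.1% (median 0.0045, 14324 genes) on either side of that length. The mean log2 CPM of the short genes minus that of the long ones, relative to the WT mean, was 0.037 ± 0.027 in HOM (0.0050 to 0.10), 0.024 ± 0.030 in HET (-0.020 to 0.071) and 0 ± 0.020 in WT (-0.031 to 0.023). The groups overlapped. The part of length in the differences of single genes was not tested.

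Promoter sequence of the nuclear genes was taken from RefSeq (GRCm38.p6, 250 bases before to 50 bases after the start) and was matched for 65 of 79. The motif of the factor NRF1 (GCGC, any base, TGCGC), known to bind promoters of respiratory genes, was found on either strand in 16 of 65 (24.6%), against 9.49% of 11829 genes tested with a promoter. The motif AAGATGGCG of YY1 was found in 7 (10.8%), against 2.80%, and the motif CCGGAAG of the ETS family, to which GABPA belongs, in 15 (23.1%), against 16.4%. Neither promoter printed here holds matches of more than 1 of these motifs. A match is a description of letters and not a site. The promoters of Atp5l, called lower in HOM (chr9:44920693-44920992, minus strand), and of Sdha, among the tightest genes (chr13:74350191-74350490, minus strand), are shown, with the 2 ETS matches of Atp5l and the 3 NRF1 matches of Sdha in capitals.
Atp5l: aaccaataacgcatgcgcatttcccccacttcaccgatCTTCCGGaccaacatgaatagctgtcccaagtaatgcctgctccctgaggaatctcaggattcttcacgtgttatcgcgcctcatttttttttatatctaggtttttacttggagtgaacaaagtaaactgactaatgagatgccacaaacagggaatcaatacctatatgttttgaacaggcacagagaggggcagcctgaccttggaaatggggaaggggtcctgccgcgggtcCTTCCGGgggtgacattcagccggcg
Sdha: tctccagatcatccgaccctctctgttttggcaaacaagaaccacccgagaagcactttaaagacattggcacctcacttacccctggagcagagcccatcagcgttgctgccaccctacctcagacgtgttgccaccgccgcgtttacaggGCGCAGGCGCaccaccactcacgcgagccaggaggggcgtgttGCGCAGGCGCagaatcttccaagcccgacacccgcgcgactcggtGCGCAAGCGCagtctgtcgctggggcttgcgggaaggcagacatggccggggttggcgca

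Genes around the respiratory chain were described from lists, again in HOM against WT with edgeR, where 7.61% of all genes tested were called. No list was tested as a set. Of 10 subunits and carriers that the name rule misses, 1 was called: Cycs, cytochrome c, the carrier between complexes III and IV, was lower, at 80.7 ± 4.46 CPM in HOM, 84.6 ± 2.17 CPM in HET and 86.9 ± 4.10 CPM in WT (log2 fold change -0.11, SE 0.031, adjusted p = 0.0280). Of 9 complex I assembly factors 0 were called, with a median of -0.012 and the smallest p for Ecsit (0.080, adjusted p = 0.107), and the assembly factors of the other complexes likewise had 0 of 20 called, with a median of -0.012. Along the number of alleles 1 of these 20 was called, against 7.78% of all genes tested. This was Cmc1, an assembly factor of complex IV, with a slope of -0.075 (SE 0.024, adjusted p = 0.0461).

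Among 10 nuclear regulators 2 were called lower in HOM and 0 higher, while 6 had a log2 fold change below 0 and 4 above. Ppargc1a, the coactivator PGC-1alpha that drives mitochondrial biogenesis, was counted at 51.4 ± 2.67 CPM in HOM, 54.0 ± 2.13 CPM in HET and 56.4 ± 3.07 CPM in WT (log2 fold change -0.14, SE 0.034, adjusted p = 0.0144). Its partner receptor Esrrg was counted at 28.2 ± 2.63 CPM in HOM, 31.6 ± 3.08 CPM in HET and 34.6 ± 2.99 CPM in WT (log2 fold change -0.30, SE 0.061, adjusted p = 0.00362). Ppargc1a is known to be enriched in parvalbumin interneurons, of whose 6 markers 3 were called lower with the summed levels given above, and the part of these cells was not tested. The median of the 10 was -0.036.

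Of 17 citric acid cycle genes 0 were called higher and 2 lower, with a median of -0.016. Sucla2, a subunit of succinyl-CoA ligase, was counted at 133 ± 4.69 CPM in HOM, 138 ± 4.20 CPM in HET and 143 ± 4.12 CPM in WT (log2 fold change -0.11, SE 0.025, adjusted p = 0.00711). Idh3a, the catalytic subunit of the NAD-dependent isocitrate dehydrogenase, had a log2 fold change of -0.095 (SE 0.027, adjusted p = 0.0288), and Idh2 was called along the number of alleles, with a slope of 0.059 (SE 0.018, adjusted p = 0.0449).

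In coenzyme Q synthesis (11 genes, median -0.00086) Coq6, a hydroxylase of the pathway, was higher (0.10, SE 0.032, adjusted p = 0.0451) and Coq10b, a coenzyme Q binding protein, was lower (-0.27, SE 0.074, adjusted p = 0.0270). In mitochondrial transcription and RNA handling (12 genes, median 0.0039) 1 was called higher: Top1mt, the mitochondrial topoisomerase, at 11.4 ± 0.990 CPM in HOM, 10.03 ± 0.593 CPM in HET and 9.56 ± 0.555 CPM in WT (0.24, SE 0.046, adjusted p = 0.00205). In the mitochondrial ribosome (76 genes, median 0.0027) Mrps35 was higher (0.19, SE 0.039, adjusted p = 0.00329) and Mrpl1 was lower (-0.13, SE 0.032, adjusted p = 0.0150).

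Frontal cortex is a mixture of cells. Markers of excitatory cortical neurons were abundant, as the label asks, with summed levels of 8450 to 9713 CPM in HOM, 8841 to 9698 CPM in HET and 8662 to 9198 CPM in WT and 0 of 7 called. Of the other lists, 2 of 5 astrocyte, 3 of 5 microglia and 2 of 6 meningeal fibroblast markers were called higher in HOM and 0 lower, and 0 markers of oligodendrocytes, choroid plexus, striatal neurons, striated muscle or red blood cells were called in either direction. Striatal content was still uneven: 4 striatal markers summed to 113 to 300 CPM in HOM, 116 to 214 CPM in HET and 111 to 409 CPM in WT. Their median log2 fold change was 0.024 in HOM against WT, -0.70 in HET against WT and 0.66 in HOM against HET. Summed levels of the microglia markers were 271 to 338 CPM in HOM, 244 to 288 CPM in HET and 232 to 280.1 CPM in WT, and those of the meningeal markers were 40.4 to 107 CPM in HOM, 44.1 to 72.5 CPM in HET and 33.2 to 52.3 CPM in WT. With vascular and meningeal marker levels as covariates, edgeR called 104 of all genes in HOM against WT and 1 of the 92, Cox4nb, which was lower.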

How the data were processed

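PolyA RNA of 20-month frontal cortex was sequenced in 28 libraries with a stranded mRNA kit, per the labels' protocols. The deposited table holds whole-number read counts per gene, not normalised. Per the submitters' processing notes, Trim Galore 0.4.3, HISAT2 2.0.5 and build GRCm38 were used. Which tool counted the reads, with which strand setting, annotation and rule for reads that fit several places, is not given in the sources used here.

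Counts of the 57 identifiers held in several rows were summed, leaving 25900 identifiers. Levels are CPM of the library total (30.5 M to 74.9 M), and CPM per kb divides by the shortest APPRIS principal transcript of GENCODE vM21. All 28 libraries entered 1 edgeR 4.0.16 fit (R 4.3.3; filterByExpr, TMM factors 0.988 to 1.02, robust quasi-likelihood test) on genotype, and a second fit on the number of mutant alleles. Adjustment was by Benjamini-Hochberg across 16110 genes, with a threshold of 0.05. The fit was tested on simulated data. Alternatives used limma 3.58.1 (voom with quality weights, which gives less weight to libraries that vary more), DESeq2 1.42.0, sva 3.50.0, other filters and scalings, covariates and libraries left out.

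The genes and the gene and marker lists were chosen with earlier results of these data known. Genes were named if called in any comparison, or if among the 3 smallest p or the 2 highest levels per length of a complex. All complex II and mitochondrially encoded genes, paralogous isoforms, the 6 widest and 4 tightest genes and the genes at the 1 CPM limit were also named, and of each list the genes called or else the one of smallest p. Intervals are 95% confidence intervals of the difference between genotypes, computed from the spread between libraries, and single libraries can lie outside them.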

Additional observations from a re-analysis of the deposited data

Results flagged for a closer look

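In 138 groups of 8 or 10 values (43 named genes and 3 library measures, each in HOM, HET and WT), 22 held a highest or lowest library whose gap to its nearest neighbour (on the log2 CPM scale for genes), as a share of the group's range, passed Dixon's 95% critical value for that number of libraries. Chance alone gives about 1 in 20 for independent groups. Some genes here were chosen for their wide spread and all share the same libraries, so that rate is no fair reference.

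HOM 2 was the high library in 11 of them. Its gap was 0.695 for the share of the nuclear genes (1.11%, against 0.938% to 0.990% in the other HOM libraries), 0.580 for Atp5a1, 0.635 for Atp5g3, 0.715 for Cox4i1 (498 CPM, against 363 to 400.3 CPM), 0.572 for Cox7a2, 0.671 for Ndufb8, 0.601 for Ndufb9, 0.598 for Sdha, 0.703 for Sdhb, 0.583 for Sdhc and 0.588 for Uqcrq. HOM 1 was the high library for Atp5g1 (0.771; 118 CPM, against 76.3 to 83.6 CPM), Atp5g2 (0.733; 44.7 CPM, against 34.8 to 37.7 CPM) and Ndufa3 (0.619). HOM 2 and HOM 1 are also the shallowest libraries, and the part of depth was not tested.

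HET 9 was low for Cox7a2 (0.483) and Ndufb9 (0.574; 121 CPM, against 134 to 145 CPM), and high for mt-Nd4l (0.648; 34.5 CPM, against 2.22 to 5.89 CPM). Atp5b was low in WT 5 (0.749; 964 CPM, against 1035 to 1066 CPM), and Ndufa4l2 was high in HET 3 (0.517; 1.79 CPM, against 1.14 to 1.42 CPM). mt-Co3 was high in HET 2 (0.708; 342 CPM, against 10.6 to 29.4 CPM) and in WT 8 (0.729; 120.3 CPM, against 9.41 to 18.8 CPM), and mt-Nd6 was high in HOM 5 (0.530; 132.5 CPM, against 61.4 to 89.1 CPM).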

How the results depend on the processing

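Of the 92 genes, 2 were called in HOM against WT (7.61% of all genes tested were). The count was 1 with no count filter, 0 with only the compared groups in the fit, 1 with vascular and meningeal marker covariates (Cox4nb), 0 without WT 6 and HOM 3, the extremes on principal component 1, 5 with limma voom (4 lower, and mt-Nd6 higher), 5 with DESeq2 (4 lower, and mt-Co3 higher), and 0 (without HOM 6, HET 8, WT 3, WT 6 or WT 7) to 5 (without HOM 2) with 1 library left out. Along the number of alleles the count of 2 became 1 with the covariates, 4 without HOM 2 and HOM 1, 0 without WT 6 and HOM 3, 4 with limma voom, 4 with DESeq2, and 0 (without WT 6 or WT 7) to 5 with 1 library left out. In HET against WT and HOM against HET it was 0 in every leave-one-out fit. The cause of these moves was not tested.

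Over all genes, HOM against WT gave 1226 calls, 104 with the covariates, 509 without WT 6 and HOM 3, and 595 (without WT 6) to 1345 with 1 library left out. The number of alleles gave 1254, 103, 608, and 681 (without WT 6) to 1401 in the same settings. With limma voom and with DESeq2, the counts over all genes in these 2 comparisons lay within 1.5-fold of 1226 and 1254. HET against WT gave 0, 1 with a 1 CPM filter, 4 with only the compared groups, 5 with 2 surrogate variables, 2 without HOM 2 and HOM 1, 14 with limma voom, 12 with DESeq2 and 0 to 3 with 1 library left out. HOM against HET gave 6, 3 with the covariates, 38 with limma voom, 40 with DESeq2 and 3 to 15 with 1 library left out. The difference in the mitochondrially encoded share was 0.184 to 0.381 percentage points for HOM minus WT, -0.132 to -0.0132 for HET minus WT and 0.249 to 0.447 for HOM minus HET with 1 library left out.

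Libraries were not treated as paired by replicate number. Of 8 HOM and WT pairs 1 had a correlation of deviations over 0.1 and 0 correlated best with their own number. Of 8 HET and WT pairs the counts were likewise 1 and 0, and of 10 HOM and HET pairs 3 and 3. No chance rate was computed for these counts, so they do not exclude pairing. With the replicate number as a block, 0 of the 92 genes were called in HOM against WT and 1 (Atp5l) along the number of alleles.

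The 43 named genes, each in 40 alternatives, gave 1720 values. Of these 1675 kept their side of the threshold, 36 lost a call, 9 gained one and 0 calls reversed. Most of these genes had no call to lose, so the count of 1675 does not measure how stable the calls were. All the losses were those of Uqcrc2 (19 of 40 alternatives) and Atp5l (17 of 40). Without a call, the sign changed in 72 values of 17 genes. Depth limits Cox4i2 and Ndufa4l2, near 1 CPM, and the unknown rule for reads with several places limits the mitochondrial stretch copied on chromosome 1.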

Other observations

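Outside the 92 genes, Cox6b2, the isoform of subunit 6B known from testis, was counted at 1.16 ± 0.325 CPM in HOM (SD, n = 10), 0.955 ± 0.180 CPM in HET (n = 10) and 0.852 ± 0.164 CPM in WT (n = 8). HOM exceeded WT by 0.42 on the log2 scale (SE 0.15; edgeR, adjusted p = 0.0711).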
